A study of Schizosaccharomyces pombe with 8 samples.

Results

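XUTs are long non-coding RNAs of yeast that were first catalogued because they pile up when the cytoplasmic 5′-3′ exonuclease Xrn1 (Exo2 in fission yeast) is lost. Of the 1638 XUTs listed for fission yeast, 1628 lie on chromosomes I, II and III, and 1120 of these had at least 50% of their length on the strand opposite to 1 protein-coding gene, called here the sense gene. They faced 965 distinct genes, of which 125 carried at least 2 XUTs and none more than 5. These 1120 antisense XUTs, among 9111 features kept, are described here together with the genes they face.

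The cells were Schizosaccharomyces pombe carrying flag-tagged Rpb3, a subunit of RNA polymerase II, grown exponentially and either left untreated or kept in trichostatin A (TSA) at 20 µg/ml for 2.5 h. TSA blocks the histone deacetylases (HDACs) of classes I and II. RNA bound to the purified polymerase (nascent RNA, measured by NET-seq, here also called IP) and the input RNA of the lysates were sequenced from biological duplicates, which gave 8 libraries in 4 groups of 2. A lysate of budding yeast, also with flag-tagged Rpb3, was added to each culture's lysate as a spike. All strains carry the tag, and TSA acts on several deacetylases at once, so no value here belongs to one enzyme.

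Antisense transcription runs across a gene in the opposite direction to its mRNA. It can begin at the 3′ end of the gene, inside it, or from the shared promoter region of a neighbour, and Xrn1 removes many of its products after export. Deacetylase complexes of the Rpd3 class are known in budding yeast to limit transcription that starts within genes. The comparison of untreated with TSA-treated cells addresses how transcription over these antisense units, and over the genes on the other strand, responds when the deacetylases are inhibited.

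The starts of the antisense XUTs lay mostly within genes. Of the 1120, 806 (72%) started in the coding span of the sense gene, 204 (18.2%) in its untranslated parts and 110 (9.82%) outside it. By position, 673 started inside the gene more than 300 nt from its 3′ end, 141 at or beyond the 3′ end, 117 within 300 nt of the start of another gene on the opposite strand (divergent), and 189 behind or within a gene on their own strand. The median XUT was 553 nt long (200 to 5308 nt), and 754 lay wholly within the sense gene. On 105 XUTs a gene on the same strand overlapped the XUT, so that reads of that gene and of the XUT cannot be told apart. Of the 1120, 244 coincided with an annotated ncRNA or another catalogued transcription unit.

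The sequences around the starts of 8 XUTs named in the results below are shown. Each gives 40 bases before the listed start in lower case and the first 20 bases of the XUT in capitals, 5′ to 3′ on the XUT strand. The first 5 belong to XUTs that start in the coding span of the sense gene, and the last 3 to XUTs that start outside it, beyond its 3′ end. Positions are those of the deposited tables, and the bases were read from RefSeq ASM294v3, on which 2723 of 2726 single-entry coding genes (99.89%) began with ATG and ended in a stop codon at the listed positions.
XUT1356 (crd1), chrI:1171405-1171464, + strand: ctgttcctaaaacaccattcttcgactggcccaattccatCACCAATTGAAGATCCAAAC
XUT0189 (mph1), chrII:375593-375652, - strand: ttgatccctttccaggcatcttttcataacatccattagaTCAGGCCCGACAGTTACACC
XUT0332 (orc1), chrII:2572513-2572572, - strand: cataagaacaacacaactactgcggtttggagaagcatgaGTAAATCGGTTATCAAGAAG
XUT0964 (eno102), chrII:58449-58508, + strand: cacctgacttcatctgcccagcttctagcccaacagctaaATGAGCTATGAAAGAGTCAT
XUT1508 (SPAC4H3.03c), chrI:3826850-3826909, + strand: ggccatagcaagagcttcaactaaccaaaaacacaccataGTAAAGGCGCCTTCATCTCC
XUT0660 (dmc1), chrI:3383972-3384031, - strand: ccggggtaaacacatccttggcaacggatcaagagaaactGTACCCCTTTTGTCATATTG
XUT0109 (inv1), chrIII:1727185-1727244, - strand: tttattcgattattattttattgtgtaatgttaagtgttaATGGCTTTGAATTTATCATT
XUT0652 (tda3), chrI:3228361-3228420, - strand: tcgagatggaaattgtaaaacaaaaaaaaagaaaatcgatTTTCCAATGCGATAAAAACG

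In the 150 nt before the start, the letters TATAAA stood on the XUT strand of 137 of 1120 XUTs (12.2%), against 939 of 5117 coding genes (18.4%) measured the same way. The letters TGACGT, the core of the site bound by ATF/CREB factors, stood on either strand before 2.23% of the XUTs and 3.4% of the coding genes. These are counts of letters, not of bound sites.

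Nascent reads on the antisense strand were few. A library held between 7218671 and 10436194 nascent reads and between 8104143 and 12591213 input reads over all features. The median antisense XUT had 12 to 16 nascent reads per library, against 188 to 318 for the median sense gene, and 1 or 2 input reads, with 296 to 449 of the XUTs at 0 input reads. Only 752 of 1120 XUTs passed the filter on low nascent values and 445 the filter on low input values, and small changes in the rest were not detectable at this depth. Since RNA came from whole cultures, fewer cells transcribing a unit and less transcription per cell cannot be told apart.

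Per length, most antisense units were transcribed far below the gene they faced. Leaving aside 3 XUTs that hold a tRNA gene, the median untreated nascent density was 18.0 spike-in scaled reads per kb for the XUTs and 97.8 for the sense genes. Across 1103 pairs with enough reads, the median density of the XUT was 0.187 of that of the gene, and in the 56 pairs with the most densely transcribed genes it was 0.0422. The XUT was the denser strand in 133 and 134 of these pairs in the untreated libraries and in 135 and 158 in the TSA libraries.

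The highest densities belonged to XUT1390, XUT0245 and XUT0681, which hold tRNA genes on their own strand and face dal81, meu18 and ppk3. XUT1390 alone had 263423, 337094, 270457 and 327468 reads in the untreated and TSA inputs. Next came XUT1348 with 507 nascent reads per kb in untreated cells, antisense to meu31, followed by XUT0260 (489 per kb, antisense to mug93), XUT0660 (431 per kb, antisense to dmc1), XUT1361 (424 per kb, antisense to mug94) and XUT0347 (369 per kb, antisense to SPBP4H10.12). The meu and mug genes were named for their higher expression in meiosis, and Dmc1 is the recombinase of meiotic strand exchange. On these 4 named meiotic genes the sense strand was at 6.02 to 61 spike-in scaled reads in the untreated libraries.

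On the spike-in scale, 21 of 752 tested XUTs were higher and 42 were lower in TSA by at least 2-fold at an adjusted p under 0.05 (limma). Among the 8052 features in the fit, 2.1% passed as higher and 6.31% as lower. The median XUT changed by -0.15 on the log2 scale and the median sense gene by -0.46, beside -0.42 over all features. Of 961 sense genes tested, 25 were higher and 60 lower. The split depends on the scale. When each library was scaled to its total reads, the median of all features was at 0.03, and 56 of 758 XUTs were higher (4.45% of all features) and 10 lower (0.843%). All 21 rises and 10 of the 42 falls were called on both scales.

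These counts also rest on single libraries. Without TSA_IP replicate 1 there were 5 rises and 0 falls, without TSA_IP replicate 2 there were 1 and 3, without untreated_IP replicate 1 there were 23 and 14, and without untreated_IP replicate 2 there were 17 and 95. Of the 12 largest rises named below, 1 was called in each of these 4 fits, and of the 12 largest falls none was. The call that held was XUT0443.

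XUT0443 had 25 and 26.3 spike-in scaled nascent reads in untreated cells and 222 and 318 in TSA. The groups lay far apart, with a log2 change of 3.11 ± 0.33 (SE, n = 2 per group, limma adjusted p = 6.3e-18). XUT0443 faces tgd1, but all of its 949 nt lie within SPBPB2B2.12c on the same strand, so the reads cannot be assigned to the XUT. XUT0160, which faces SPBPB21E7.10, likewise lies within a gene on its own strand and went from 8 and 3.28 to 22.1 and 32.3.

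Among the rises with no gene on their own strand, the largest was XUT1356, inside crd1, a cardiolipin synthase gene. It had 9 and 6.02 nascent reads in untreated cells and 30.9 and 53.3 in TSA, a log2 change of 1.80 ± 0.35 (limma adjusted p = 4e-05). The call was lost without TSA_IP replicate 2 (adjusted p = 0.142). XUT1137, on ric8, a gene for an exchange factor of G proteins, had 28 and 21.3 against 60.2 and 100 reads. XUT0332, on orc1, the largest subunit of the origin recognition complex, had 32 and 22.4 against 63.5 and 84.1. XUT0189, on the spindle checkpoint kinase gene mph1, had 10 and 8.75 against 27.6 and 39.6. Groups that do not overlap were a condition for naming these XUTs.

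The remaining named rises had log2 changes between 1.05 and 1.27. They were XUT0960 (on the hexose transporter gene ght7), XUT0776 (on the amino acid permease gene isp5), XUT0476 (dre4), XUT0442 (SPBPB2B2.08), XUT0438 (nrg1) and XUT0568 (utp5, a gene for ribosome assembly). On msh3, a mismatch repair gene whose own nascent reads fell by 1.21, both XUT0617 and XUT0620 rose, by 1.59 and 1.36. Neither is among the 12 largest rises, so each had under 20 mean reads or groups that overlap. Without TSA_IP replicate 2 neither was called, since XUT0443 was the only rise there. Of the pair, only XUT0620 stayed called whichever scaling was used and also with edgeR and DESeq2. With these limits, XUT0617 and XUT0620 were the only XUTs called higher on a gene called lower.

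The largest fall was that of XUT0521, on SPAC56F8.12. It had 114 and 66.2 nascent reads in untreated cells and 7.73 and 28.3 in TSA, a log2 change of -2.10 ± 0.35 (limma adjusted p = 2.8e-07). The gene itself had 61 and 48.7 reads against 55.2 and 71.1, which overlap between groups. The call was lost without TSA_IP replicate 1 (adjusted p = 0.461).

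Other named falls ran from -1.33 to -1.62. XUT1030, on the nucleoporin gene nup131, had 260 and 158 reads against 54.1 and 74.4. XUT1508, on SPAC4H3.03c, had 115 and 81.0 against 32 and 26.7. XUT1328, on SPAC16C9.01c, had 144 and 84.8 against 26.5 and 46.1. XUT1236, on pdp2, had 371 and 274 against 105 and 137. XUT0744 (SPAC22F8.05), XUT0234 (txc1), XUT1109 (wdr7), XUT1570 (rnh203, a subunit of RNase H2), XUT1007 (new20), XUT1208 (on the disaggregase gene hsp104) and XUT1140 (on the splicing factor gene syf2) made up the rest. XUT0234 shares all of its 768 nt with a gene on its own strand. XUT0744 and XUT1208 had 19.4 and 43.3 untreated reads per kb, beside 600 and 1844 on their genes. Whether reads of the sense strand were counted on them was not tested.

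**Figure D1:**
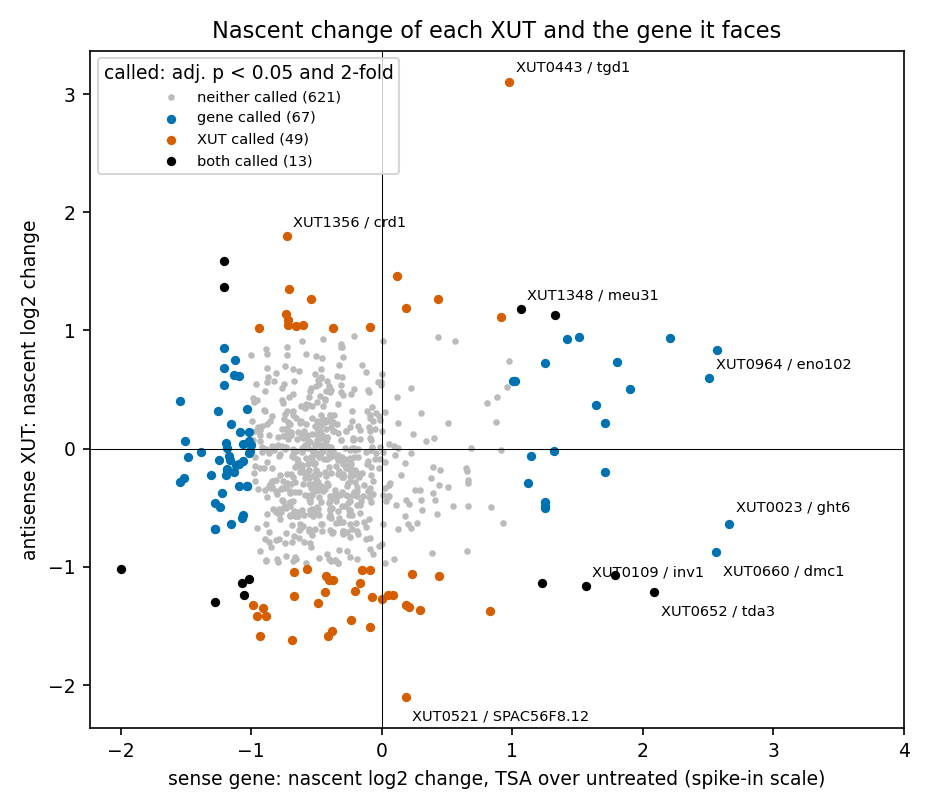
Each point is 1 of 750 XUT and gene pairs tested on both strands, with the nascent log2 change of the sense gene across and of the XUT upward, spike-in scale, coloured by which member was called (adjusted p under 0.05 and 2-fold). The cloud runs along neither diagonal, and the pairs at lower right (tda3, inv1) hold genes that rose with an XUT that fell.

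Across the 750 pairs the changes of XUT and gene gave Pearson's r = 0.0314 as a description over pairs that share their libraries and normalisation. With 473 pairs of at least 20 mean reads on the XUT it was 0.0832. Of 27 tested XUTs on genes that were higher in TSA, 2 were higher (XUT1348 on meu31 and XUT0442 on SPBPB2B2.08) and 4 were lower (XUT0652, XUT0109, XUT1393 and XUT1460, on tda3, inv1, crp79 and agl1). XUT1348 had 935 and 415 reads against 788 and 2551, which overlap between groups, and its change of 1.18 went to 0.34 without TSA_IP replicate 2 (limma adjusted p = 0.737). Of 53 on genes that were lower, 2 were higher and 5 were lower (XUT0555, XUT0556, XUT0347, XUT1232 and XUT0923). On this spike-in scale 2.1% of all features were higher and 6.31% lower. The split changed with the scale. On the total-read scale, of 46 tested XUTs on genes higher there, 12 were higher and 0 lower, beside 4.45% and 0.843% of all features.

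The ratio of antisense to sense reads within a library does not depend on the scaling factor, apart from the added pseudocount. In nascent RNA the ratio was higher in TSA in 101 of 750 tested XUT pairs and lower in 43. Over all 1667 antisense pairs of the tables, which also include annotated ncRNAs and other units, 11.3% were higher and 6.06% lower. The median change was 0.27 for the XUT pairs and 0.18 for all. From the total-read scale, 81 were higher and 46 lower, beside 9.41% and 6.71% of all antisense pairs. When only the 467 pairs with at least 20 mean reads on both strands were kept and 0.5 read was added, 46 were higher and 32 lower. Without untreated_IP replicate 1 the counts were 26 and 19. Of the 8 largest rises and 8 largest falls of the ratio among pairs with at least 20 mean reads on both strands, all 8 rises and 7 falls were called in each of the 4 fits without 1 library.

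Among pairs with at least 20 mean reads on both strands, 8 falls of the ratio were named. Of their 8 genes, 6 were called higher in nascent RNA themselves, and SPAC56F8.12 and new20 were not. On dmc1 the gene had 38 and 21.9 nascent reads in untreated cells and 170 and 237 in TSA. Its antisense unit XUT0660 had 999 and 554 reads against 292 and 558. The gene rose by 2.56 ± 0.33 (limma adjusted p = 6.4e-12), the XUT was at -0.87 (adjusted p = 0.0274, under the 2-fold limit), and the ratio fell by 3.43 on the log2 scale (SE 0.29, adjusted p = 2.5e-05). The antisense reads of 1 TSA library were as high as those of 1 untreated library.

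On ght6, which encodes a hexose transporter, the gene went from 40 and 19.7 to 170 and 264 reads, while XUT0023 had 336 and 221 against 143 and 209. The ratio changed by -3.30 ± 0.28 (limma adjusted p = 2.5e-05). On tda3 the gene went from 9 and 6.02 to 57.4 and 45.3, while XUT0652 fell from 50 and 27.9 to 9.94 and 16.2. Here both strands were called, in opposite directions. The change of XUT0652 was -1.21, and it was -0.85 without untreated_IP replicate 1, -0.97 without TSA_IP replicate 1 and -1.45 without TSA_IP replicate 2.

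On inv1, the gene for secreted invertase, which is repressed by glucose, the gene rose from 577 and 443 to 975 and 2323 nascent reads and XUT0109 fell from 457 and 308 to 119 and 227. Its ratio changed by -2.72 ± 0.29 (limma adjusted p = 0.00013). On crp79, which encodes an RNA-binding protein, the gene went from 44 and 59.6 to 139 and 118 and XUT1393 from 258 and 152 to 76.2 and 98.6. On agl1, an alpha-glucosidase gene, the gene went from 200 and 142 to 438 and 808 and XUT1460 from 26 and 13.1 to 3.86 and 8.08. In these 3 pairs, where both strands were called, the untreated and TSA libraries did not overlap on either strand. This is no separate support, since with 2 libraries against 2 the smallest exact two-sided permutation p is 0.333. The falls of XUT0109, XUT1393 and XUT1460 were under 2-fold without untreated_IP replicate 1, at -0.88, -0.76 and -0.70. They were also under it without TSA_IP replicate 1, at -0.71, -0.96 and -0.81. Without TSA_IP replicate 2 they were -1.61, -1.31 and -1.33.

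XUT0964 differed from these. It starts inside eno102, an enolase gene, and its nascent reads were 132 and 130 in untreated cells and 204 and 198 in TSA, while the gene went from 38 and 25.7 to 180 and 238. The ratio changed by -1.92 ± 0.30 (limma adjusted p = 0.00178). The gene was called higher, and the XUT was not called (0.60, adjusted p = 0.157). On new20 (XUT1007) the gene had 94.0 and 62.9 reads against 55.2 and 350, which overlap between groups. The call of its ratio was lost without untreated_IP replicate 1 (adjusted p = 0.134) or untreated_IP replicate 2 (adjusted p = 0.0691), and the change went from -2.20 to -1.12 without TSA_IP replicate 2.

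**Figure D2:**
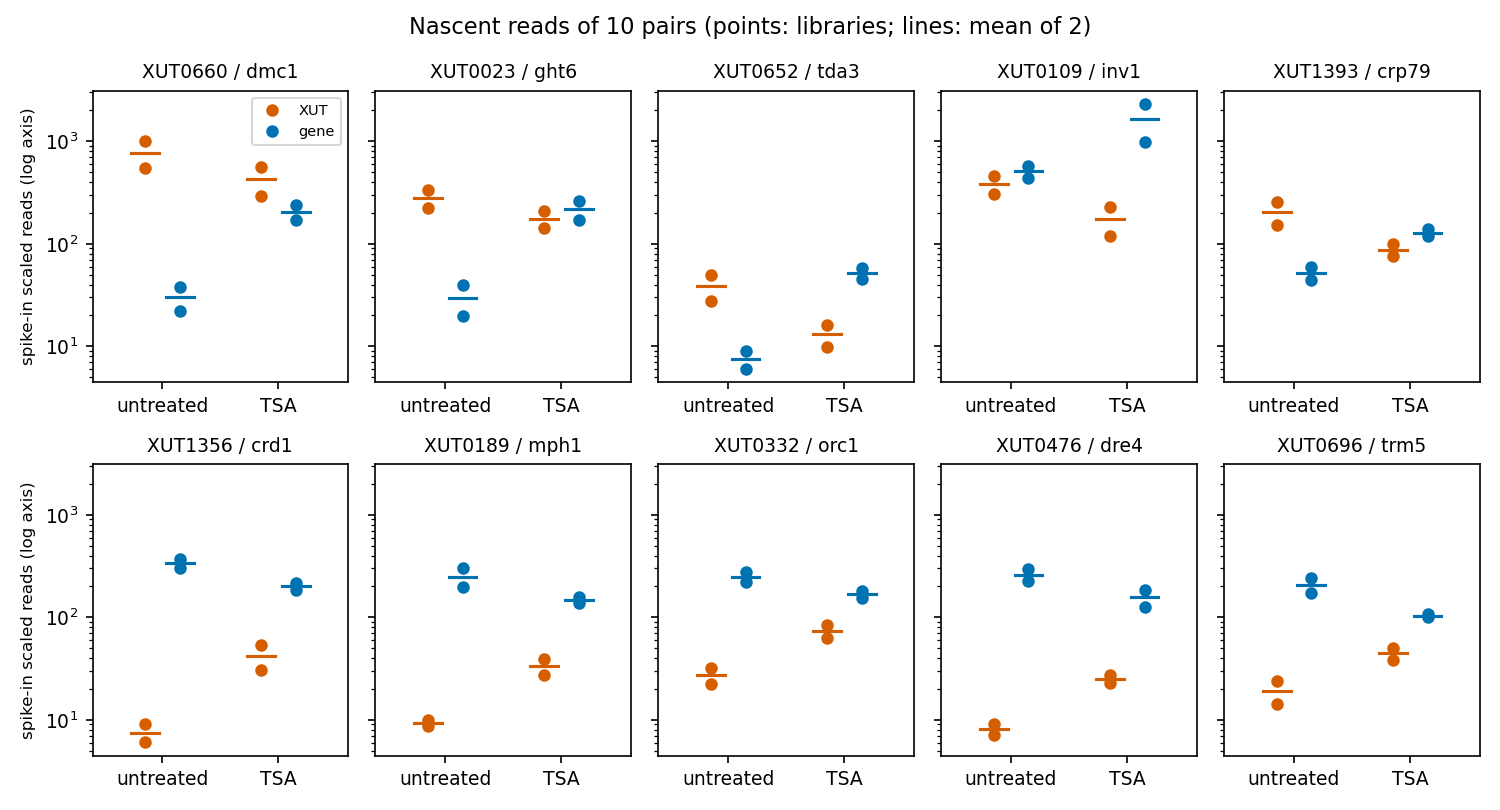
Spike-in scaled nascent reads (log axis) of 10 XUTs and their sense genes, untreated and TSA, with a point for each library and a line at the mean of 2. In the upper row the gene rose from below or near the XUT, for example dmc1 from 38 and 21.9 to 170 and 237, and in the lower row the XUT was higher in TSA.

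In the 8 pairs named for a rise of the ratio, with the same minimum of 20 reads, the antisense unit was higher in TSA and the mean of the gene was lower, except on tgd1. The ratio changed by 2.53 ± 0.29 on crd1 (XUT1356, limma adjusted p = 0.00024), where the gene had 370 and 303 nascent reads in untreated cells and 184 and 216 in TSA. It changed by 2.06 ± 0.30 on mph1 (XUT0189), with 300 and 200 reads on the gene against 138 and 157. It changed by 1.81 ± 0.28 on orc1 (XUT0332), with 274 and 220 against 153 and 182. The genes of these 3 pairs were not called on their own.

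The others were tgd1, with the caveat on XUT0443 above, trm5 (XUT0696), ubp12 (XUT0944), dre4 (XUT0476) and rtt109 (XUT1251), with changes of the ratio between 1.79 and 2.13. Trm5 is a tRNA methyltransferase, Ubp12 a ubiquitin protease and Rtt109 the acetyltransferase of histone H3 lysine 56. Of these genes ubp12 was called lower in nascent RNA, at 587 and 492 reads against 240 and 247. XUT0944 and XUT1251 were not called on their own on the spike-in scale.

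In input RNA, 20 of 445 tested XUTs were higher in TSA and 8 were lower, beside 4.53% and 1.56% of all 7245 features tested. Of 951 sense genes, 58 were higher and 34 lower. Of the XUTs called higher in input, 9 were also called higher in nascent RNA on the spike-in scale, and all 8 called lower in input were called lower there. On the recovered reads, edgeR called 22 XUTs higher and 9 lower in input, and DESeq2 called 3 and 1. Without TSA_input replicate 1 limma called 8 and 7, without TSA_input replicate 2 it called 9 and 5, and without untreated_input replicate 1 or replicate 2 it called 17 and 5 or 23 and 4. With groups that do not overlap and at least 10 mean input reads, 7 XUTs were named as higher and 4 as lower.

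XUT0964 on eno102 had the most input reads of these, 81.6 and 254 total-read scaled reads in untreated cells and 572 and 998 in TSA, a log2 change of 2.38 ± 0.34 (limma adjusted p = 0.00023). The sense RNA of eno102 had 0 and 0.912 reads against 35.9 and 23.3, so both strands rose and the antisense strand stayed the more abundant. XUT1348 on meu31 rose from 26 and 22.8 to 90.7 and 100 (1.92 ± 0.19, adjusted p = 6.1e-06), and meu31 rose from 6.50 and 4.56 to 22.4 and 22.5. XUT0397 on mug30 rose from 18.8 and 19.2 to 84.2 and 97.7 (2.19 ± 0.20, adjusted p = 2.2e-06).

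XUT1282 on hhy1 rose from 26 and 19.2 to 57.1 and 50.1 input reads. XUT0591 on mug68 had 7.95 and 6.39 against 17.1 and 20.7, and XUT1551 on cbh1, a homologue of the centromere protein CENP-B, had 3.61 and 7.30 against 14.7 and 13.0. XUT0443 went from 0.722 and 0 to 14.7 and 12.1. Of the 7 rises, those of XUT0443, XUT0964, XUT0397, XUT1348 and XUT1282 were called in each fit without 1 library.

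The falls in input were XUT1393 on crp79, XUT0109 on inv1, XUT1236 on pdp2 and XUT0520 on SPAC56F8.12. XUT1393 fell from 26 and 24.6 to 7.07 and 4.32 input reads (-1.98 ± 0.33, limma adjusted p = 0.00103) while crp79 mRNA rose from 9.39 and 7.30 to 67.7 and 68.3. XUT0109 fell from 23.1 and 25.5 to 9.43 and 8.64 while inv1 rose from 8.67 and 20.1 to 87.8 and 64.8. XUT1236 fell from 23.8 and 24.6 to 8.25 and 12.1 while pdp2 rose from 37.6 and 31 to 105 and 102. In these 3 pairs the 2 strands moved in opposite directions in input. Groups that do not overlap were a condition for naming the XUTs, and those of the 3 genes did not overlap either. The calls of XUT1393 and XUT0109 held in each fit without 1 library, that of XUT1236 was lost without untreated_input replicate 2 (limma adjusted p = 0.0624) or TSA_input replicate 1 (adjusted p = 0.109), and that of XUT0520 was lost in 3 of the 4.

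On dmc1 the antisense RNA stayed level in input, at 15.2 and 12.8 reads in untreated cells and 15.3 and 17.3 in TSA, while the mRNA went from 0 and 1.82 to 46.5 and 49.3. XUT1508 on SPAC4H3.03c fell from 6.50 and 5.47 to 0.589 and 0.864 and the gene rose from 10.1 and 10.9 to 48.9 and 42.3, while the gene's nascent change was -0.38 (limma adjusted p = 0.337). For the XUT these were 9 and 6 recovered reads against 1 and 1, below the 10 mean reads required for naming an input change. Over all pairs, the antisense to sense ratio in input was higher in 15 of 437 tested XUT pairs and lower in 23, beside 3.68% and 4.4% of 1113 antisense pairs. Without TSA_input replicate 1 these were 0 and 2, and without TSA_input replicate 2 they were 0 and 0. Of the 14 pairs with at least 20 mean reads on both strands, 0 were called higher and 5 lower by limma, and 8 had an unadjusted p under 0.05.

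**Figure D3:**
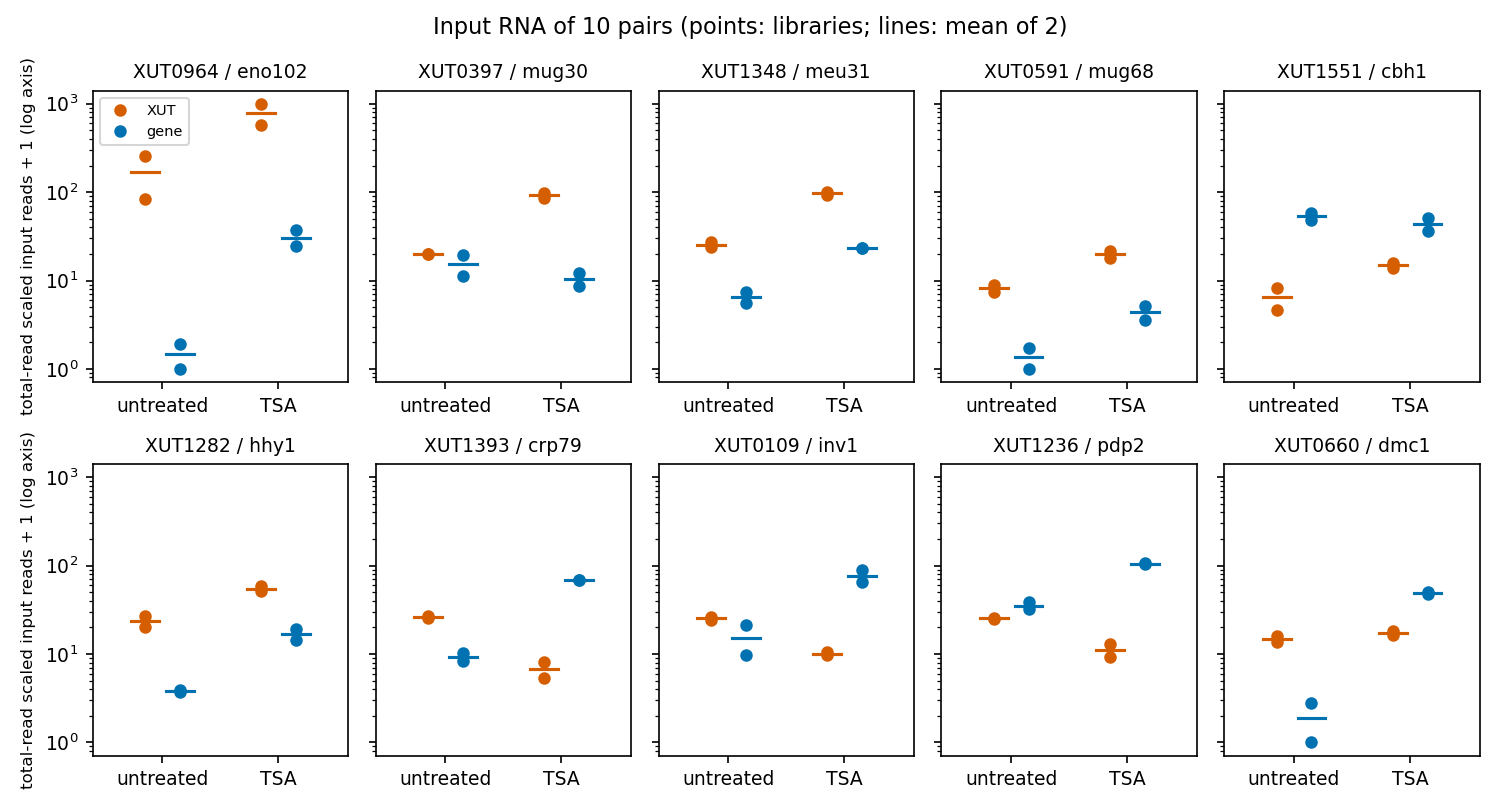
Total-read scaled input reads plus 1 (log axis) of 10 XUTs and their sense genes, untreated and TSA, with a point for each library and a line at the mean of 2. XUT0964 and XUT1348 rose together with their genes, whereas XUT1393, XUT0109 and XUT1236 fell while crp79, inv1 and pdp2 rose.

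The nascent to input ratio was compared between each XUT and its gene in untreated cells. Of 425 pairs with enough reads, it was higher for the XUT than for the gene in 107 and lower in 30, with a median difference of 0.55 on the log2 scale. Over all 1094 antisense pairs 30.8% were higher and 6.76% lower, beside 25.2% and 7.06% of the XUT pairs. Without the untreated replicate 1 culture 66 were higher and 20 lower, and without the untreated replicate 2 culture 65 and 15. The measure covers only XUTs with input reads, and those at 0 have no ratio. By limma, 0 of 433 XUTs and 0 of 7183 features changed their nascent to input ratio in TSA past the threshold, which is 0% of the features, and 54 XUTs had an unadjusted p under 0.05.

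Summed over the 1120 XUTs and their genes, the antisense share of nascent reads was 15.6% and 17.4% in the untreated libraries and 21.8% and 20.0% in TSA. Most of that difference lay in the 3 XUTs that hold tRNA genes. Without them the share was 10.7% and 10.3% against 10.8% and 12.6%. In input the share without them was 3.63% and 4.14% in untreated cells and 5.14% and 6.31% in TSA. With them the input share was 81.6% and 83.0% against 77.7% and 85.3%. With 2 libraries against 2 the exact two-sided permutation test cannot go below p = 0.333, which the nascent shares and the input share without these XUTs reached, and the input share with them had an exact p of 1.

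A list of 180 genes, the mug and meu genes and core genes of meiosis, held 45 genes that carried 50 of the XUTs. Over the whole list, 36 of 167 tested genes were higher and 0 lower in input RNA. In nascent RNA 14 of 178 were higher and 5 lower. Among the genes with XUTs, 15 of 43 were higher and 0 lower in input, and 4 of 45 and 0 in nascent RNA. Beside these stand 4.53% and 1.56% of all features in input and 2.1% and 6.31% in nascent RNA. Of the XUTs on these genes, 1 of 39 was higher and 4 were lower in nascent RNA. The ratio of antisense to sense was lower in 9 of 39 pairs and higher in 1, with a median of -0.44 against 0.18 over all antisense pairs, of which 6.06% were lower and 11.3% higher. Without untreated_IP replicate 1 the ratio was lower in 5 of 36 and without untreated_IP replicate 2 in 6 of 37, while the 4 lower XUTs became 0 without untreated_IP replicate 1 or either TSA library, and the 4 higher genes became 1 to 7. Among them mug14, with XUT0168, went from 28 and 21.3 to 105 and 171 nascent reads on the gene, and from 11 and 10.4 to 18.2 and 36.4 on the XUT. For mug147 with XUT1241 the gene stayed at 419 and 257 against 253 and 384 nascent reads while the XUT fell from 146 and 84.2 to 34.2 and 54.2, and the mRNA in input rose from 5.06 and 5.47 to 54.8 and 51.9.

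Genes of the stress and nutrient responses carried 22 XUTs on 19 genes. In nascent RNA 4 of 19 genes were higher and 2 lower, beside 2.1% and 6.31% of all features, and the ratio was lower in 6 of 18 pairs and higher in 2, beside 6.06% and 11.3% of all antisense pairs. Without 1 library in turn, 1 to 7 genes were higher and 0 to 5 lower, and the ratio was lower in 4 to 6 pairs and higher in 0 to 3. The galactokinase gene gal1 rose from 98 and 82.6 to 277 and 310 nascent reads with XUT0444 at 91 and 77.7 against 93.3 and 131. The proline permease gene put4 went the other way, from 182 and 107 to 50.8 and 59.8, with XUT0780 at 19 and 21.9 against 28.2 and 25.9. The fructose bisphosphatase gene fbp1, with XUT0978, was not called on either strand, and nor was the thiamine-repressed gene nmt1 with XUT0116.

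Of the genes the study itself discusses, 8 carried 9 antisense XUTs. They were picked by the study on these cells and are not independent evidence. Their ratio was lower in 4 of 7 tested pairs (ght6, mug14, mug147 and cta3, a P-type ATPase gene) and higher in none, whereas over all antisense pairs 6.06% were lower and 11.3% higher. Without untreated_IP replicate 1 this was 1 of 7 (ght6), and without untreated_IP replicate 2 it was 2 of 7. No XUT lay antisense to any of 141 cytoplasmic ribosomal protein genes.

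Of 87 genes for factors that act on antisense RNA or heterochromatin, 29 carried antisense XUTs. In nascent RNA 2 of the 87 were lower and 0 higher, beside 6.31% and 2.1% of all features, and without untreated_IP replicate 2 there were 12 lower, without either TSA library 0. These were arb1, of the RNAi pathway, at 245 and 206 against 81.7 and 97.8 reads, and air1, of the nuclear polyadenylation complex, at 210 and 133 against 85.6 and 75.2. In input 2 of the 87 were lower (2.3%) and 0 higher, beside 1.56% and 4.53% of all features. The 2 were the heterochromatin protein gene swi6 and the exosome subunit gene rrp46, with log2 changes of -1.02 and -1.08. XUT0556, antisense to arb1, fell together with its gene.

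The median response varied with the place of the start. Divergent XUTs had the lowest median nascent change of the 4 classes, -0.45 over 110 tested, close to the -0.42 of all features. Of these 110, 13 were lower and 2 higher, beside 6.31% and 2.1% of all features. The 13 became 2 without untreated_IP replicate 1, 35 without untreated_IP replicate 2 and 0 without either TSA library. Those behind a gene on their own strand were at -0.05 over 157, those at the 3′ end at -0.16 over 119 and those inside the gene at -0.12 over 366. On the total-read scale 0 of 110 divergent XUTs were lower and 6 higher, beside 0.843% and 4.45% of all features. Their median there was -0.05, beside 0.03 over all features. The other classes were at 0.30 behind a gene, 0.24 at the 3′ end and 0.23 inside the gene. The ratio of antisense to sense had a median of -0.07 for the divergent XUTs, 0.10 at the 3′ end, 0.32 inside the gene and 0.41 behind a gene. From the total-read scale these medians were -0.10, 0.07, 0.20 and 0.34. On the spike-in scale the ratio was lower in 11 and higher in 13 of 110 divergent pairs, and lower in 1 and higher in 19 of 156 pairs behind a gene, beside 6.06% and 11.3% of all antisense pairs. Without untreated_IP replicate 1 these were 6 and 4 of 106, and 1 and 5 of 154, and without untreated_IP replicate 2 the divergent pairs had 11 lower and 3 higher. The median of the divergent ratio was 0.04 without untreated_IP replicate 1. The classes also differed in depth, since 110 of 117 divergent XUTs but 366 of 673 inside the gene passed the nascent filter. These are descriptions, and the difference between classes was not tested.

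**Figure D4:**
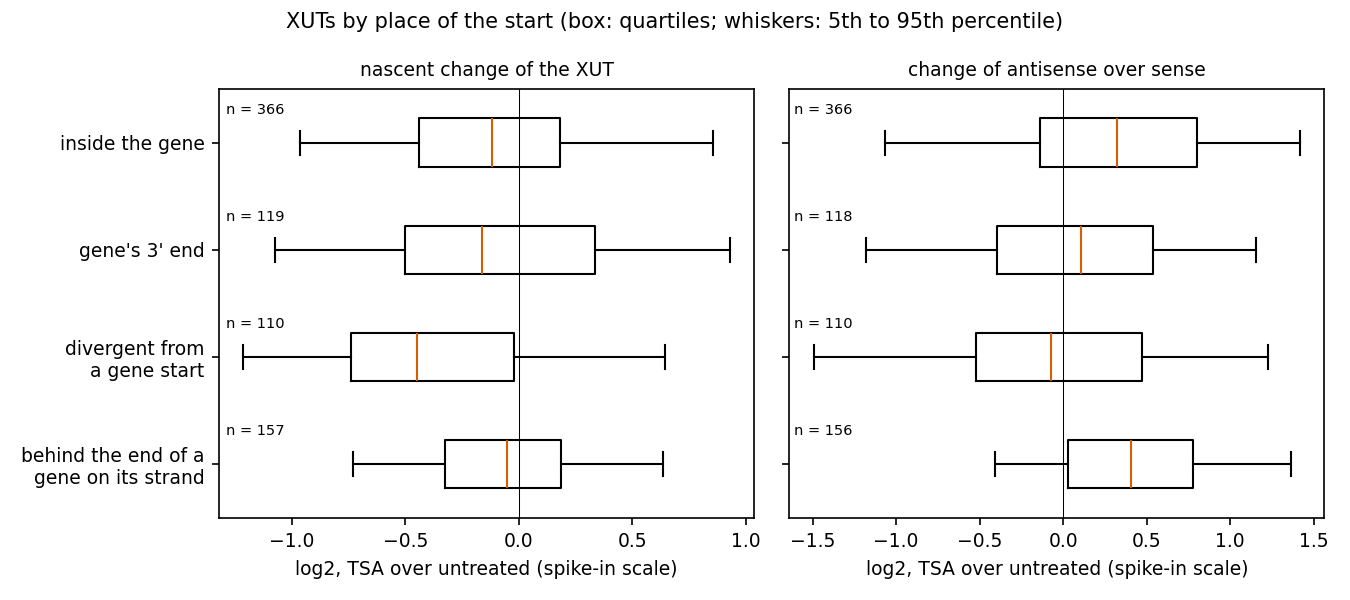
Nascent log2 change of the XUT (left) and of the antisense to sense ratio (right) on the spike-in scale by place of the start, with boxes at the quartiles, whiskers at the 5th and 95th percentile and the number of tested pairs. The median of the divergent XUTs lies at -0.45 on the left, the lowest of the 4 classes, beside -0.42 over all features.

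Near the chromosome ends the median was higher. Of 36 XUTs within 100 kb of an end, 27 were tested in nascent RNA and 5 were higher and 0 lower, with a median of 0.57 against -0.16 for the 725 farther away, beside 2.1% of all features higher. In input 7 of 19 were higher and 0 lower, beside 4.53% higher. Without 1 library in turn, 1 to 6 were higher in nascent RNA and 3 to 6 in input. The 5 were XUT0160, XUT0438, XUT0442, XUT0443 and XUT0960, on chromosome II. Their genes moved too, since 10 of 29 sense genes there were higher in nascent RNA and 1 was lower, and without TSA_IP replicate 1 or TSA_IP replicate 2 there were 4 or 2 higher.

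The 22 XUTs with an overlap of 50 to 55% had a median nascent change of -0.13 over 19 tested, and the 14 XUTs just below, at 45 to 50%, had -0.13 over 14.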

How the data were processed

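Nascent and input RNA of untreated and TSA-treated S. pombe were measured in 8 libraries. Per the labels, the authors processed reads with cutadapt and Bowtie, and the paper names the ASM294v2 genome. The methods state, for NET-seq, that reads were reduced to their 3′ end and that regions were counted in R, without naming these tables. The rule for strands is not given in the sources used here. The deposited count columns hold reads per feature. The authors multiplied them by 1 factor per library, so that the deposited signal is in normalised reads, 1 table scaled to S. cerevisiae ribosomal protein genes (IP) and 1 to total reads (IP and input). Whole reads were recovered for 100% of values at a tolerance of 0.001. Deposited sums over replicates were not used.

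Antisense XUTs were found from the listed coordinates. Values were tested as log2(value + pseudocount), with the 10th percentile of nonzero values as the pseudocount (6, 6.58 and 1.18 for the spike-in, total-read and input scale), in features with a mean above it, by limma 3.58.1 (R 4.3.3) with a trend and Benjamini-Hochberg adjustment over all features. Folds are on that scale and understate the change of low features. The ratio of antisense to sense was fitted over all antisense pairs without the trend. A call needs an adjusted p under 0.05 and 2-fold. In the nascent fits the spread between duplicates was shrunk fully onto the trend. edgeR 4.0.16 and DESeq2 1.42.0 on recovered reads were alternatives. Scripts were tested on simulated data.

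The XUTs named are the 12 largest called nascent rises and falls with groups that do not overlap and a mean of at least 20 reads. The 8 largest rises and falls of the ratio were named by the same conditions, with at least 20 reads on both strands. Up to 8 called input changes per direction were named, with groups that do not overlap and at least 10 reads. The 8 highest densities, XUTs on listed genes and the listed factor genes called were also named. Others, such as those on msh3, were named after their values were seen. The members and gene lists were chosen with earlier results of these data known. Deviations of same-numbered libraries from their group means correlated at -0.205 in nascent RNA (spike-in scale), -0.242 (total-read scale) and 0.0181 in input. The numbers were therefore not taken to pair untreated with TSA samples. The nascent to input ratio does take the IP and input of the same number and group as 1 culture. The samples are biological duplicates, and nascent p-values use the spread pooled over features of like level, not that of each feature alone. Fits without 1 library assume that the lone sample varies like the other group.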

Additional observations from a re-analysis of the deposited data

How the results depend on the processing

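The main limits are 2 libraries a group and few antisense reads. Counts are given as higher and lower in TSA. For nascent RNA on the spike-in scale, the 21 and 42 called XUTs and the 25 and 60 called sense genes became 4 and 20, and 15 and 33, with 4 times the pseudocount. They became 43 and 6, and 41 and 5, with median-ratio scaling, and 56 and 10, and 44 and 6, with total-read scaling. With a replicate block in limma they were 5 and 11, and 16 and 15, and with the crossed replicate numbers as block, chosen after seeing the data, they were 21 and 42, and 25 and 60, as without a block. All 21 and 42 XUTs past the 2-fold limit also passed the adjusted p in the fit without a block, so that the fold limit set these counts. DESeq2 called 10 XUTs higher. Without 1 library in turn, the XUT counts ran from 1 to 23 and from 0 to 95, and those of the sense genes from 5 to 39 and from 0 to 172.

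In input, the 20 and 8 XUTs became 13 and 4 with 4 times the pseudocount, 13 and 4 with an overlap of at least 80%, and 3 and 1 by DESeq2, which called 31 sense genes higher and 14 lower in place of 58 and 34. With 4 times the pseudocount 18 sense genes were lower. Without 1 library in turn, the XUT counts ran from 8 to 23 and from 4 to 7, and those of the sense genes from 45 to 61 and from 22 to 47.

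The nascent ratio of antisense to sense, at 101 higher and 43 lower, went to 53 higher with 4 times the pseudocount and 46 higher with 20 reads on both strands, a setting chosen after seeing the data. Without 1 library it ran from 26 to 97 and from 19 to 41. With the replicate block it was 85 and 39. The input ratio, at 15 higher and 23 lower, had 32 higher with 4 times the pseudocount, 35 with no filter, 26 with the replicate block, 7 with an overlap of at least 80%, and 0 higher and 5 lower with 20 reads on both strands. It ran from 0 to 20 in each direction without 1 library. The difference in nascent to input ratio between XUT and gene, at 107 and 30, became 236 and 67 with no filter, 66 higher without untreated replicate 1 culture, and 65 and 15 without untreated replicate 2 culture. Leaving aside the 3 XUTs with tRNA genes, chosen after seeing the data, the nascent antisense share rose by 1.18 percentage points in place of 4.39, and the input share by 1.83 in place of -0.812. The cause of these shifts was not tested. No named change of an XUT reversed its direction under any setting run. For changes named by their size, groups that do not overlap were a condition. Leaving out 1 library could therefore not reverse them, and this is no separate support.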
